A study of Mus musculus with 9 samples.

Results

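The transcript levels of 10 regulators of mitochondrial biogenesis were compared between mouse hearts labelled as germline Parkin knockouts and wild-type hearts. The regulators were the coactivators Ppargc1a and Ppargc1b, the estrogen-related receptors Esrra, Esrrb and Esrrg, the transcription factors Nrf1 and Gabpa, the peroxisome proliferator-activated receptors Ppara and Ppard, and their dimer partner Rxra. They were taken by symbol from the deposited table of read counts, which held all 10 among its 23457 rows. All 10 passed the expression filter, which left 12640 rows in the test.

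Mitochondrial biogenesis needs many nuclear genes to be transcribed together with the mitochondrial genome, and the coactivators of the PGC-1 family coordinate this. They do not bind DNA themselves but dock on transcription factors: the estrogen-related receptors and the PPARs, which govern fatty acid oxidation and oxidative phosphorylation genes in the heart, and NRF1 and GABP, which act on genes of the respiratory chain and of mitochondrial DNA maintenance. In heart muscle, where mitochondria fill a large part of the cell, PGC-1 and ERR proteins are known to sustain the oxidative capacity that contraction draws on.

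Each library came from a single heart of an adult mouse on the C57BL/6J background, 4 labelled germline Parkin knockout (KO 1 to 4) and 5 wild type (WT 1 to 5). The labels give no other allele, no treatment and no sex. Parkin is a ubiquitin ligase best known for tagging damaged mitochondria for removal, and a germline deletion is carried by every cell of the animal. Polyadenylated RNA came from frozen ventricular apexes, although the tissue label reads whole heart, and the libraries were single-end and kept no strand. Fewer cells of a type and less RNA per cell cannot be told apart in such tissue RNA.

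Libraries held 11637206 to 15777844 assigned reads in KO hearts and 4415183 to 20827699 in WT hearts, of which WT 2 and WT 3 were by far the shallowest. Mitochondrially encoded genes took 10.04% to 15.4% of the reads in KO hearts and 32.6% to 58.2% in WT hearts. Beyond a fit without these genes and Rn45s, given below, the part of this gap in the results on the regulators was not tested. The fold change of a gene also followed its base composition. The median log2 fold change of KO over WT was -0.59 among genes below the lower quartile of transcript GC content, 45.7%, and 0.59 among those above the upper quartile, 55.0%. Each regulator is therefore given from 2 fits: as tested by edgeR with TMM scaling, and from another edgeR fit in which each heart's trend on transcript GC content and length was removed. That fit also takes away any difference between genotypes that follows these properties. The 8 cardiomyocyte markers had reads in every heart. Their summed levels were 69226 to 77849 CPM (reads scaled to the TMM-adjusted library size) in KO hearts and 55593 to 61044 CPM in WT hearts. The largest part was Myh6, with means of 41898 CPM in KO hearts and 28586 CPM in WT hearts, and Nkx2-5 had as few as 41 reads in a WT heart. Of the 8 markers 3 were called higher and 1 lower, and 0 higher and 1 lower with the trends removed. Of 4 atrial markers, Sln had 0 reads in every KO heart and 0 to 4 in WT hearts, and Myl7 had 1 to 14 in KO hearts and 0 to 19 in WT hearts. Myl4 had 21 to 57 reads in KO hearts and 6 to 35 in WT hearts, Nr2f2 had 230 to 293 in KO hearts and 48 to 240 in WT hearts, and neither was called in either fit. Of 6 adipocyte markers, Adipoq, Plin1, Cidec, Lep and Ucp1 had at most 12 reads in a KO heart and at most 5 in a WT heart. The remaining one, Cidea, had 402 to 497 reads in KO hearts and 45 to 591 in WT hearts and was called lower only with the trends removed (-0.42, edgeR adjusted p = 0.026). Of 6 skeletal muscle markers, Myh1, Actn3 and Tnnt3 had at most 12 reads in a KO heart and at most 8 in a WT heart and were not tested. The 3 that could be tested were called higher. Summed levels of the list were 1460 to 2024 CPM in KO hearts and 679 to 1166 CPM in WT hearts, most of it Ckm, which heart muscle also expresses. Myh2, a fast myosin of skeletal muscle, had 126 to 379 reads in KO hearts and 0 to 29 in WT hearts. By edgeR with TMM scaling 26.2% of all genes tested were called higher and 25.2% lower. Of 5 fibroblast markers 2 were higher and 2 lower, and of 5 endothelial markers 1 and 2. Of 5 mural markers 2 were higher and 1 lower, and of 4 immune markers 2 and 1. Their part in the results on the regulators was not tested.

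By edgeR's quasi-likelihood test with Benjamini-Hochberg adjustment over all genes, 5 of the 10 regulators differed between the genotypes. Ppargc1a, Esrrg and Gabpa were lower in KO hearts, and Esrra and Rxra were higher. Calls were as common over the transcriptome: 51.4% of all genes tested were called, 26.2% higher and 25.2% lower. The 3 regulators that were lower have the lowest transcript GC content of the 10, from 41.4% to 42.5%, and the 2 that were higher stand at 57.0% and 61.8%. Ppargc1b at 57.8% and Ppard at 59.8% lie between these 2 and were not called in this fit. The fit with the trends removed called 4 of the 10, Esrra and Rxra higher and Ppargc1a and Ppard lower, where 38.1% of 12553 genes were called, 19.0% higher and 19.1% lower. The median log2 fold change of the 10 was 0.15 in the first fit and -0.08 with the trends removed, against -0.01 and 0.01 over all genes tested. In CPM the KO and WT hearts did not overlap for 5 of the 10 regulators, against 41.6% of all genes. They did not overlap for 3 of the 10 once the trends were removed, against 31.6% of all genes.

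**Figure D1:**
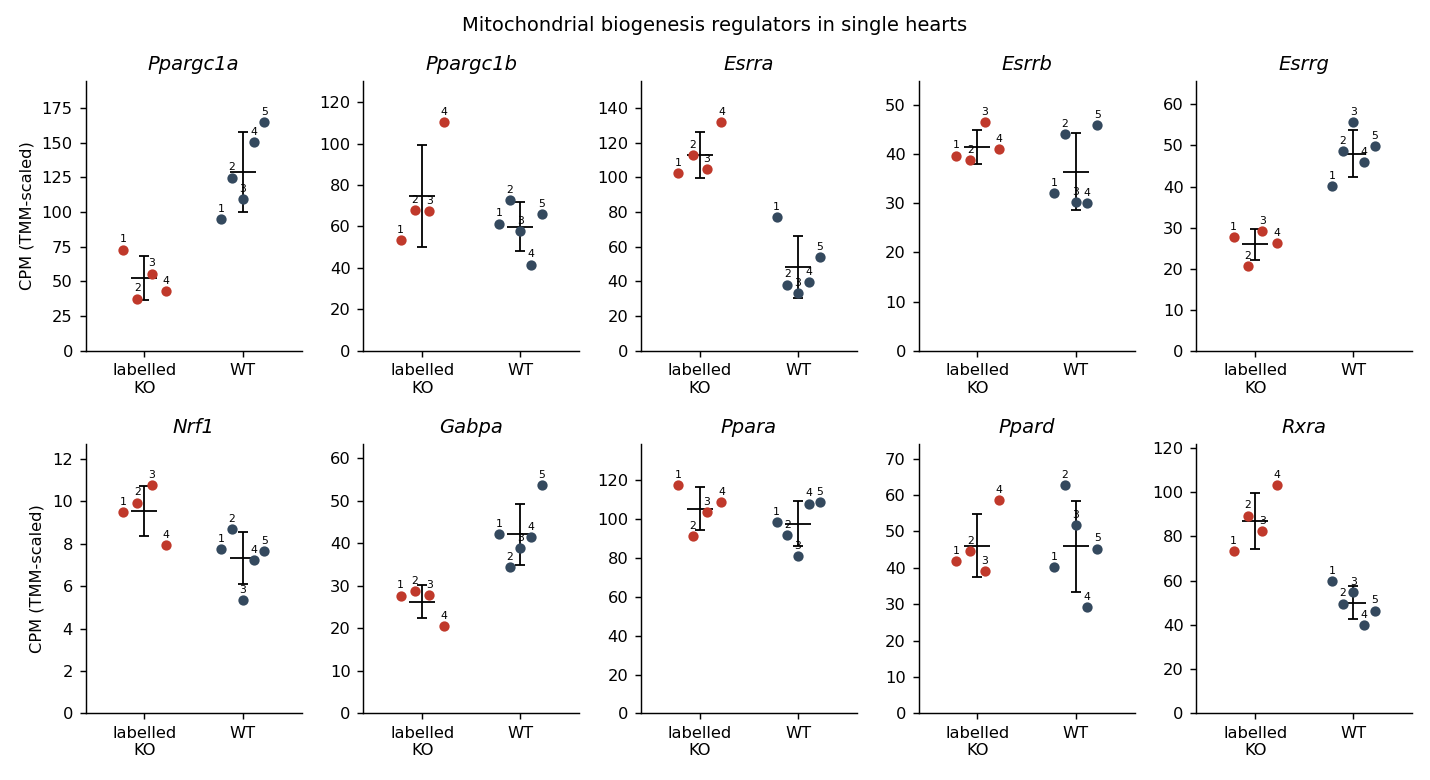
Each point is the level of a regulator in a single heart in TMM-scaled CPM (y axis), numbered by replicate, for 4 labelled KO hearts (red, left) and 5 WT hearts (dark blue, right), with bars for the mean and SD. All KO hearts lie below all WT hearts for Ppargc1a, Esrrg and Gabpa and above them for Esrra and Rxra, and the groups overlap for the other 5.

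Ppargc1a, on chromosome 5 at 51454250 to 51567726 of GRCm38 (minus strand), encodes PGC-1alpha, the inducible member of the coactivator family that responds to exercise, cold and energy demand. It had 73.0, 37.6, 55.6 and 43.1 CPM in KO hearts 1 to 4, against 94.9, 125, 109.6, 150.4 and 165 CPM in WT hearts 1 to 5. The highest KO heart, KO 1, lay below the lowest WT heart, WT 1. The means were 52.3 ± 15.7 CPM in KO hearts (SD, n = 4) and 129 ± 28.7 CPM in WT hearts (SD, n = 5), a log2 fold change of -1.30 ± 0.20 (SE; edgeR adjusted p = 1.3e-04). With the GC and length trends removed the levels were 55.2 to 83.7 CPM in KO hearts and 85.3 to 131 CPM in WT hearts, still without overlap. Its log2 fold change was then -0.59 ± 0.16 (edgeR adjusted p = 0.0083). It stayed between -0.69 and -0.50 when any 1 of the 9 hearts was left out, and was called lower each time. Ppargc1a was the single regulator called lower in both edgeR fits and also in the FPKM values.

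Ppargc1b, on chromosome 18 at 61298136 to 61400431 (minus strand), encodes PGC-1beta, the more constitutive relative, and carries the microRNA gene Mir378a within its bounds. It had 53.3, 67.8, 67.5 and 110.4 CPM in KO hearts and 61.4, 72.8, 57.8, 41.6 and 66.2 CPM in WT hearts. The groups overlapped, with KO 4 above all other hearts. The log2 fold change was 0.33 ± 0.20 (edgeR adjusted p = 0.18) and, with the trends removed, -0.28 ± 0.15 (adjusted p = 0.16), so neither a rise nor a fall was called. Without KO 4 the second value was -0.42 and was called lower.

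Within a heart the reads of the coactivators can be set against each other. There were 0.390 to 1.37 reads of Ppargc1a per read of Ppargc1b in KO hearts and 1.55 to 3.62 in WT hearts, so that the groups did not overlap. In 3 of 4 KO hearts, all but KO 1, Ppargc1b had the more reads, and in none of the 5 WT hearts. These are ratios of reads and not of transcripts, since the lengths and GC contents differ (41.7% for Ppargc1a and 57.8% for Ppargc1b). After removal of the trends the ratio was 0.847 to 1.68 in KO hearts and 1.10 to 2.25 in WT hearts, and the groups overlapped.

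The 250 bases before a RefSeq start site of Ppargc1a, Esrra and Gabpa are shown. These 3 genes differed between the genotypes by edgeR and stand at the ends of the range of GC content. RefSeq promoter windows on GRCm38.p6, each from 250 bases before to 50 after a start site, were at hand for 9 of the 10 regulators, 15 windows in all. Capitals mark CGTCA, the reverse complement of the cAMP response half-site TGACG, in Ppargc1a, the GC box GGGCGG in its reverse complement CCGCCC in Esrra, and the NRF1 core CGCATGCG in Gabpa.
Ppargc1a, chr5:51567726-51567975, minus strand: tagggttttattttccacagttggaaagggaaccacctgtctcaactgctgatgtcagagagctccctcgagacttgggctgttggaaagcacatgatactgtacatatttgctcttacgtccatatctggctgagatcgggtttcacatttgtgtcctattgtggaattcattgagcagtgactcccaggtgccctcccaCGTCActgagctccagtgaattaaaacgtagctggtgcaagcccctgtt
Esrra, chr19:6921809-6922058, minus strand: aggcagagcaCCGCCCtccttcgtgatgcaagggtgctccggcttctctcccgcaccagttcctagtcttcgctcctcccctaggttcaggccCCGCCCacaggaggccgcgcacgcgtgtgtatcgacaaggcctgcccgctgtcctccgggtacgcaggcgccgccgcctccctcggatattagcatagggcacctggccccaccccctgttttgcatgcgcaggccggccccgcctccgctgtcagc
Gabpa, chr16:84834874-84835123, plus strand: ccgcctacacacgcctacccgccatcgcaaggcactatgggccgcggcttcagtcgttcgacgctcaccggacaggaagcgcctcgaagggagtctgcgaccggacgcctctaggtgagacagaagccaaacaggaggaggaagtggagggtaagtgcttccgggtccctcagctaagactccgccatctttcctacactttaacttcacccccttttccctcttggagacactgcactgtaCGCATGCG
All motifs were searched on both strands over the whole windows. The half-site TGACG, part of the full cAMP response element TGACGTCA, starts at -49 in Ppargc1a and was found in 20.8% of 32851 RefSeq windows. It was in 4 of the 15 windows, of Ppargc1a, Esrrb, Ppara and Ppard. The full element was in 1.79% of windows and in none of the 15. The GC boxes of Esrra start at -240 and -157, and 35.7% of windows hold at least 1. So did 7 of the 15, of Esrra, Esrrg, Nrf1, Ppara, Ppard and Rxra. The NRF1 core starts at -8 in Gabpa, was also found at -30 in Ppara, and is held by 1.87% of windows. These positions count from RefSeq start sites. GENCODE, the source of the gene bounds given here, begins Gabpa at 84834925, so most of the printed stretch and its core lie inside that gene. The Ppara window also lies inside the GENCODE gene, which begins at 85734983. Neither the ERR element TNAAGGTCA (1.28% of windows) nor the GABP motif CCGGAAGT (3.89%) had a match in the 15 windows. The shorter AAGGTCA, contained in the ERR element, was in 4.72% of windows and in 1 of the 15, before an alternative start of Rxra. The windows of Ppargc1a, Esrra and Gabpa have 48.7%, 66.0% and 59.3% GC. A match is a string of letters, and the data hold no measure of binding.

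The estrogen-related receptors are orphan nuclear receptors that use PGC-1 proteins in place of a ligand. Esrra, on chromosome 19 at 6910977 to 6921813 (minus strand), encodes ERRalpha, a main partner of PGC-1alpha on oxidative phosphorylation genes. It had 102, 113, 105 and 132 CPM in KO hearts, against 77.3, 38.2, 33.5, 39.5 and 53.9 CPM in WT hearts. Every KO heart lay above every WT heart, and WT 1 was the highest of its group. The means were 113 ± 13.3 CPM in KO hearts (SD, n = 4) and 48.4 ± 17.8 CPM in WT hearts (SD, n = 5), a log2 fold change of 1.20 ± 0.20 (edgeR adjusted p = 2.3e-04). Without the trends the KO hearts had 79.9 to 88.2 CPM and the WT hearts 43.9 to 88.0 CPM, where WT 1 overlapped the KO hearts. In that fit the log2 fold change was 0.42 ± 0.16 (edgeR adjusted p = 0.0493). That call was lost when any heart except WT 1 was left out, with values of 0.33 to 0.60 over the 9 omissions, and without WT 2 and WT 3 it was 0.23 (adjusted p = 0.20). Exons of Esrra overlap those of Trmt112 on the other strand, and without strand their shared reads cannot be told apart. Trmt112, a cofactor of methyltransferases, had 20.5 to 25.8 CPM on its own row in KO hearts and 15.6 to 20.3 CPM in WT hearts. With the trends removed it had 15.2 to 22.7 CPM in KO hearts and 19.5 to 25.3 CPM in WT hearts, which overlapped. Per length it had 29.1 to 43.3 FPKM in KO hearts and 12.5 to 25.7 FPKM in WT hearts, below Esrra in every KO heart but above it in WT 2, WT 3 and WT 4.

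Esrrg, on chromosome 1 at 187608791 to 188214885 (plus strand), encodes ERRgamma, which is abundant in heart and drives the switch to oxidative metabolism after birth. It had 27.7, 20.5, 29.1 and 26.3 CPM in KO hearts, against 40.1, 48.6, 55.7, 46.0 and 49.8 CPM in WT hearts. All KO hearts were below all WT hearts. The log2 fold change was -0.88 ± 0.14 (edgeR adjusted p = 1.4e-04), and with the trends removed -0.22 ± 0.12 (adjusted p = 0.16), with overlapping levels of 28.6 to 38.8 CPM in KO hearts and 36.2 to 45.0 CPM in WT hearts. Esrrb, on chromosome 12, encodes ERRbeta, better known from stem cells and the placenta. Its levels were 38.8 to 46.5 CPM in KO hearts and 29.99 to 46.0 CPM in WT hearts. They overlapped, and neither fit called a change (log2 fold change 0.20 ± 0.15, edgeR adjusted p = 0.29; with the trends removed -0.17 ± 0.15, adjusted p = 0.39).

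The reads of Esrra per read of Esrrg were 3.61 to 5.50 in KO hearts and 0.601 to 1.93 in WT hearts. In 3 of the 5 WT hearts, WT 2, WT 3 and WT 4, Esrrg had more reads than Esrra, and in none of the KO hearts. After removal of the trends it was 2.06 to 2.95 in KO hearts and 0.975 to 2.43 in WT hearts, and WT 1 alone of the WT hearts fell among the KO hearts. Transcripts of Esrra and Esrrg lie far apart in GC content, at 61.8% and 42.5%.

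**Figure D2:**
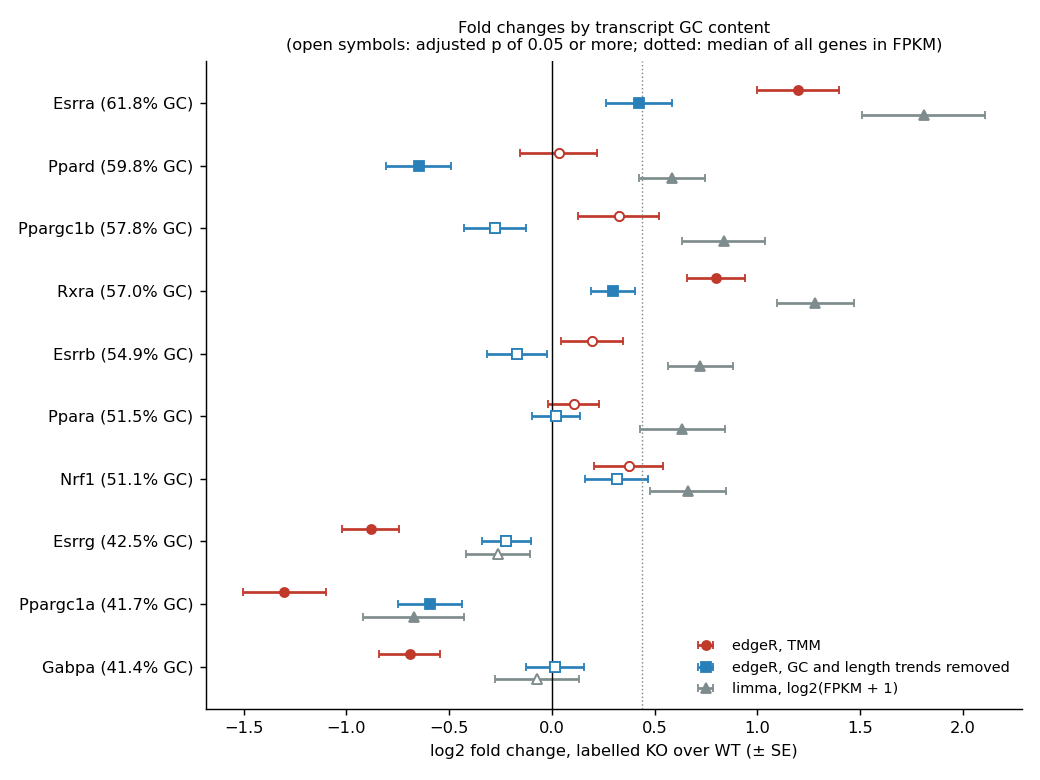
Log2 fold change of each regulator, labelled KO over WT (x axis, with SE), ordered from high to low transcript GC content (y axis), by edgeR with TMM scaling (red circles), by edgeR with GC and length trends removed (blue squares) and by limma on log2(FPKM + 1) (grey triangles). The red circles run from -1.30 for Ppargc1a to 1.20 for Esrra; without the trends the values run from -0.65 for Ppard to 0.42 for Esrra, and open symbols did not pass the test.

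NRF1 and GABP are the nuclear respiratory factors, which bind the promoters of respiratory chain genes and of the factors that copy and transcribe mitochondrial DNA. Nrf1, on chromosome 6, had the fewest reads of the 10. It had 9.50, 9.94, 10.8 and 7.95 CPM in KO hearts and 7.76, 8.67, 5.33, 7.23 and 7.66 CPM in WT hearts, counts that rest on 111 to 213 reads in a KO heart and 18 to 173 in a WT heart. KO 4 was below WT 2, so the groups overlapped. The log2 fold change was 0.37 ± 0.17 (edgeR adjusted p = 0.072) and 0.32 ± 0.15 with the trends removed (adjusted p = 0.12). Its transcript has 51.1% GC, near the median of 50.4% over all genes. Without KO 4 it was called higher by edgeR, at 0.45 (adjusted p = 0.036).

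Gabpa, on chromosome 16 at 84834925 to 84863779 (plus strand), encodes the DNA-binding subunit of GABP. It had 27.7, 28.8, 27.9 and 20.5 CPM in KO hearts, against 42.1, 34.3, 38.8, 41.5 and 53.7 CPM in WT hearts. The KO hearts were all below the WT hearts, with KO 4 the lowest. The log2 fold change was -0.69 ± 0.15 (edgeR adjusted p = 0.0014). Without the trends the KO hearts, at 30.6 to 41.4 CPM, lay within the range of the WT hearts, at 27.2 to 43.2 CPM, and the log2 fold change was 0.02 ± 0.14 (adjusted p = 0.94). Gabpa has the lowest transcript GC content of the 10, 41.4%. Its exons overlap those of Atp5j on the other strand, so reads of the shared stretch cannot be told apart. Atp5j codes for a subunit of ATP synthase and had 112 to 141 CPM in KO hearts and 106 to 138 CPM in WT hearts. With the trends removed Atp5j had 84.9 to 101 CPM in KO hearts and 134 to 172 CPM in WT hearts. It was then called lower (-0.63, edgeR adjusted p = 4.5e-04). Per read of Gabpa there were 0.343 to 0.388 reads of Nrf1 in KO hearts and 0.137 to 0.253 in WT hearts, without overlap. Without the trends these were 0.238 to 0.302 in KO hearts and 0.185 to 0.337 in WT hearts, which overlapped.

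PPARalpha and PPARdelta are fatty acid receptors that switch on genes of lipid uptake and oxidation, and both bind DNA with an RXR partner. Ppara, on chromosome 15, had 118, 91.5, 104 and 109 CPM in KO hearts and 98.6, 91.9, 80.9, 108 and 109 CPM in WT hearts. The groups overlapped, with a log2 fold change of 0.11 ± 0.13 (edgeR adjusted p = 0.49) and 0.02 ± 0.12 with the trends removed (adjusted p = 0.91). Ppard, on chromosome 17 at 28232700 to 28301474 (plus strand), had 41.9, 44.7, 39.0 and 58.6 CPM in KO hearts and 40.2, 62.8, 51.8, 29.2 and 45.3 CPM in WT hearts. These overlapped, and the log2 fold change was 0.03 ± 0.19 (edgeR adjusted p = 0.90). With the trends removed Ppard had 38.0, 35.4, 32.2 and 37.4 CPM in KO hearts and 45.9, 78.2, 65.7, 41.8 and 55.0 CPM in WT hearts. Every KO heart was then below every WT heart, with WT 2 and WT 3, the shallow libraries, the highest. Ppard then had a log2 fold change of -0.65 ± 0.16 (edgeR adjusted p = 0.0056). It ran from -0.75 to -0.52 when single hearts were left out, called lower each time, and was -0.41 without WT 2 and WT 3 (adjusted p = 0.023). Its transcript has 59.8% GC. Of the count fits run, only those with the trends removed called Ppard.

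Rxra, on chromosome 2 at 27676440 to 27762957 (plus strand), encodes the retinoid X receptor that pairs with the PPARs and with thyroid hormone and liver X receptors. It had 73.2, 89.4, 82.3 and 103 CPM in KO hearts, against 59.7, 49.6, 54.8, 40.0 and 46.4 CPM in WT hearts. All KO hearts stood above all WT hearts. The means were 87.0 ± 12.7 CPM in KO hearts (SD, n = 4) and 50.1 ± 7.60 CPM in WT hearts (SD, n = 5), a log2 fold change of 0.80 ± 0.14 (edgeR adjusted p = 3.2e-04). After removal of the trends the groups still did not overlap, at 70.3 to 76.4 CPM in KO hearts and 50.7 to 67.0 CPM in WT hearts. Rxra then had a log2 fold change of 0.30 ± 0.11 (adjusted p = 0.042). It ran from 0.24 to 0.35 when single hearts were left out, and the call held only without WT 1 or without WT 3. Without both shallow hearts it was 0.34 (adjusted p = 0.041).

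**Figure D3:**
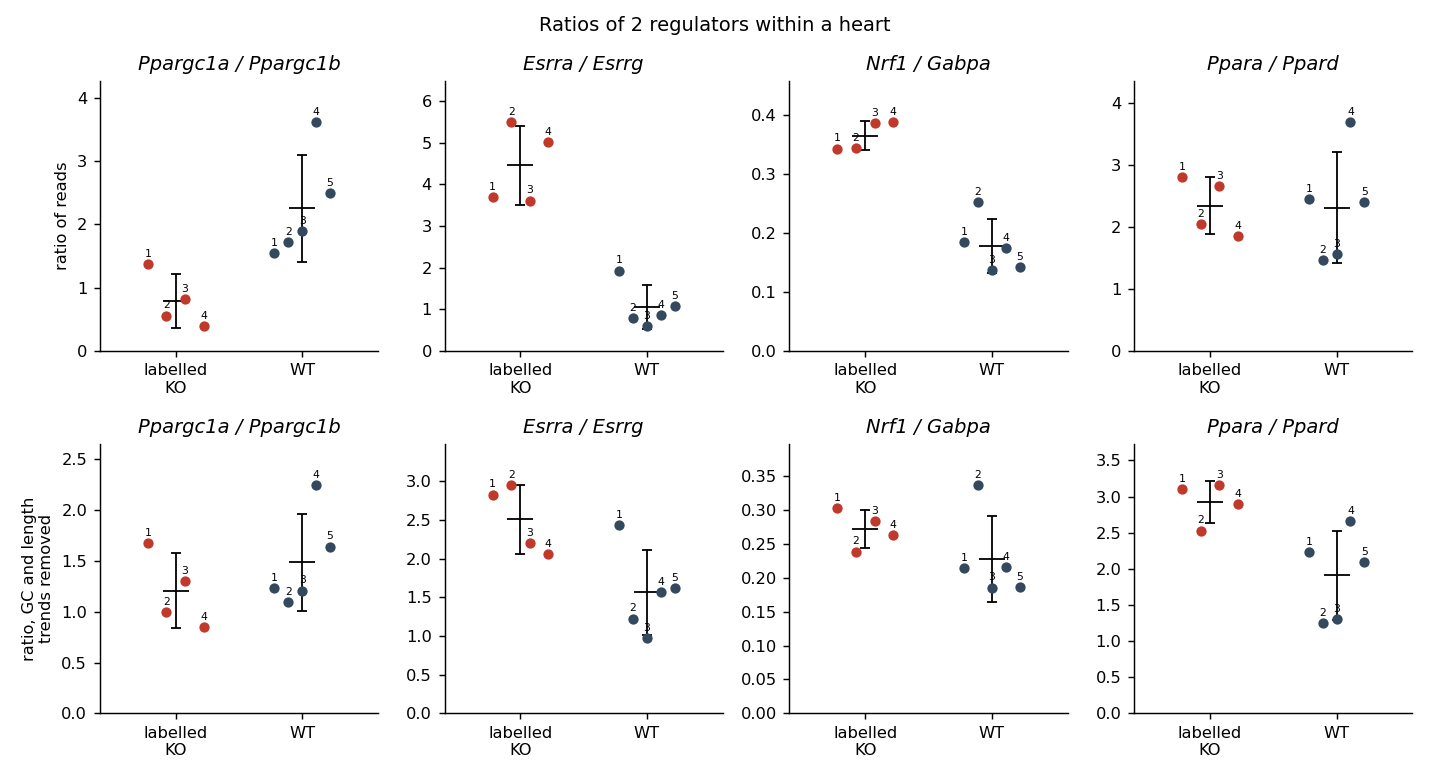
Ratio of the reads of 2 regulators in each heart (y axis; upper panels, as counted; lower panels, with GC and length trends removed), for 4 labelled KO hearts (red, left) and 5 WT hearts (dark blue, right), with mean and SD bars. As counted, the groups do not overlap for Ppargc1a over Ppargc1b, Esrra over Esrrg and Nrf1 over Gabpa. In the lower panels all 4 pairs overlap. Esrra over Esrrb, not drawn, overlapped as counted, at 2.26 to 3.22 in KO hearts and 0.866 to 2.41 in WT hearts. So did Rxra over Ppara, at 0.622 to 0.977 in KO hearts and 0.370 to 0.678 in WT hearts. The share of all gene pairs without overlap was not computed.

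FPKM, which the authors scaled per length, set the levels of the genes side by side, but they still carry each heart's GC trend, and so does the order in each group. In KO hearts Esrra led with 67.4 ± 4.98 FPKM (SD, n = 4), followed by Ppargc1b with 26.0 ± 7.19, Rxra with 20.7 ± 1.98, Ppard with 18.4 ± 2.70, Ppara with 17.8 ± 2.42, Esrrb with 12.4 ± 1.12, Ppargc1a with 10.3 ± 3.59, Gabpa with 6.87 ± 1.24, Esrrg with 6.14 ± 1.01 and Nrf1 with 3.82 ± 0.72 FPKM. Neighbours in this order overlapped except for Esrra over Ppargc1b, Ppara over Esrrb and Esrrg over Nrf1. In WT hearts the order was Esrra with 20.5 ± 11.4 FPKM (SD, n = 5), Ppargc1a with 16.8 ± 4.75, Ppargc1b with 13.9 ± 2.83, Ppard with 11.97 ± 1.76, Ppara with 11.4 ± 3.29, Rxra with 8.13 ± 2.42, Esrrg with 7.56 ± 1.02, Gabpa with 7.38 ± 1.98, Esrrb with 7.17 ± 1.27 and Nrf1 with 2.07 ± 0.65 FPKM. Here the sole neighbours whose ranges did not overlap were Esrrb and Nrf1. Ppargc1a ranked 7 of 10 in KO hearts and 2 of 10 in WT hearts.

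**Figure D4:**
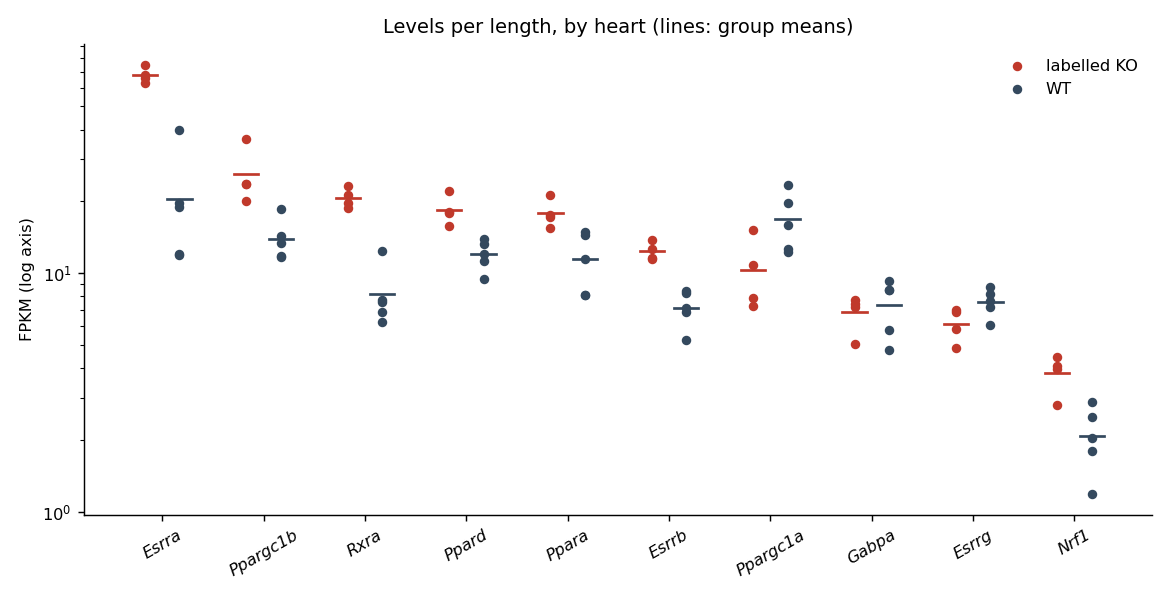
FPKM of each regulator (y axis, log scale) in single hearts, with 4 labelled KO hearts (red, left of each pair) and 5 WT hearts (dark blue), lines at the group means and genes ordered by their KO mean. Esrra is highest in both groups, at 67.4 FPKM in KO hearts and 20.5 in WT hearts, and Ppargc1a is the single gene of the first 7 whose KO mean lies below its WT mean.

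The FPKM table is no independent measurement of the regulators. For 9 of the 10 the FPKM of a heart equalled its reads divided by the assigned total, times a constant, with a spread under 5% over the 9 hearts, and for Nrf1 the spread was 16.6%. That total includes the mitochondrially encoded reads, which took a smaller share in KO hearts than in WT hearts, and the median gene stood 0.44 higher in KO hearts on the log2(FPKM + 1) scale. By limma on that scale 8 of the 10 regulators were called, Ppargc1a lower and Ppargc1b, Esrra, Esrrb, Nrf1, Ppara, Ppard and Rxra higher. Of all genes 53.3% were called, 47.2% higher and 6.09% lower. Ppargc1a was at 15.1, 7.26, 10.8 and 7.87 FPKM in KO hearts and at 15.9, 12.6, 12.3, 23.4 and 19.6 FPKM in WT hearts. KO 1 was higher than WT 2 and WT 3, so the groups overlapped in this unit, and the log2 difference was -0.67 ± 0.25 (limma adjusted p = 0.038). That call was lost without KO 2, KO 3, KO 4, WT 4 or WT 5. The FPKM call of Ppara (0.63, limma adjusted p = 0.023) was lost without KO 1, KO 3 or WT 3, and was 0.36 without both WT 2 and WT 3 (adjusted p = 0.096). With each heart centred on its own median, the calls were those of edgeR on the counts: Esrra and Rxra higher and Ppargc1a, Esrrg and Gabpa lower, 5 of 10.

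Among 6849 genes averaging 10 CPM or more, the 5 whose centred log2 CPM ran closest to Ppargc1a over the 9 hearts were Nebl, Myo9a, Med13, Fgd4 and Adnp. Their root-mean-square differences from it were 0.163, 0.171, 0.174, 0.176 and 0.179 log2 units. Nebl encodes nebulette, a cardiac Z-disc protein, and Med13 a subunit of the Mediator kinase module. Their GC contents were 40.1%, 42.3%, 40.5%, 36.9% and 48.1%, below the median of all genes. Once the trends were removed the 5 nearest were Tmppe, Klf12, Cxcr7, Tmem63b and Nebl, at 0.158 to 0.169 log2 units among 6841 genes, and only Nebl was in both sets of 5.

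Coregulators and upstream regulators of the family formed a list of 27, of which 26 were tested and Perm1 was not analysed here. Of the 26, 4 were higher and 14 lower in KO hearts by edgeR, with a median log2 fold change of -0.44 against -0.01 over all genes. Of all genes tested 26.2% were called higher and 25.2% lower. The fit without the trends called 5 higher and 9 lower, with a median of -0.04. It called 19.0% of all genes higher and 19.1% lower. Klf15, a glucocorticoid-induced factor of cardiac lipid metabolism, was at 59.6 ± 9.74 CPM in KO hearts and 27.0 ± 6.97 CPM in WT hearts (log2 fold change 1.13 ± 0.17, edgeR adjusted p = 1.1e-04; 0.76 with the trends removed). Atf2, a CREB-family factor that acts on the Ppargc1a promoter downstream of p38, was at 11.03 ± 3.03 CPM in KO hearts and 31.3 ± 6.10 CPM in WT hearts (-1.47 ± 0.19, adjusted p = 3.9e-05; -0.75 with the trends removed). Med1, the Mediator subunit that receives PGC-1alpha, and Ncor1, a corepressor that opposes it, were lower, with log2 fold changes of -0.72 ± 0.11 (adjusted p = 1.4e-04) and -0.70 ± 0.11 (adjusted p = 1.6e-04). These 4 genes were called in the same direction with the trends removed, Med1 at -0.35 and Ncor1 at -0.46.

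Partner subunits and other nuclear receptors numbered 13, of which 3 were higher and 2 lower, against 26.2% and 25.2% of all genes. Their median log2 fold change was 0.001. The fit without the trends called 1 higher and 2 lower (median -0.12), against 19.0% and 19.1% of all genes. The liver X receptors Nr1h3 (0.81 ± 0.18, edgeR adjusted p = 0.0017) and Nr1h2 (0.68 ± 0.16, adjusted p = 0.0025) and the retinoid X receptor Rxrb (0.59 ± 0.14, adjusted p = 0.0027) were higher, and none of these was called with the trends removed, where they stood at 0.23, -0.07 and -0.17. Nr4a1, an activity-induced orphan receptor, was lower (-1.07 ± 0.27, adjusted p = 0.0044), and it was called lower with the trends removed as well (-1.57 ± 0.28, adjusted p = 6.4e-04).

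The 20 NRF1 and GABP target genes split, with 7 higher and 6 lower, against 26.2% and 25.2% of all genes. Their median log2 fold change was -0.003. With the trends removed 6 were higher and 5 lower, against 19.0% and 19.1% of all genes, with a median of 0.10. Polg, the mitochondrial DNA polymerase, was at 55.6 ± 6.56 CPM in KO hearts and 27.0 ± 2.74 CPM in WT hearts (1.03 ± 0.13, edgeR adjusted p = 2.4e-05; 0.89 with the trends removed). Ssbp1, which coats single-stranded mitochondrial DNA, was at 6.59 ± 2.59 CPM in KO hearts and 21.9 ± 6.93 CPM in WT hearts (-1.70 ± 0.25, adjusted p = 9.4e-05; -1.01 with the trends removed). The cytochrome oxidase subunits Cox4i1 and Cox6c were higher by 1.10 ± 0.13 (adjusted p = 1.8e-05) and 1.02 ± 0.15 (adjusted p = 8.4e-05). Cox6c was also called without the trends, at 1.07, and Cox4i1 was not, at 0.30 (adjusted p = 0.063).

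Of 18 ERR target genes, 7 were higher and 3 lower, against 26.2% and 25.2% of all genes. The median log2 fold change of the list was 0.15. Without the trends 2 were higher and 2 lower, against 19.0% and 19.1% of all genes, with a median of 0.07. Myoglobin, Mb, was at 13074 ± 2082 CPM in KO hearts and 7181 ± 780.0 CPM in WT hearts (0.86 ± 0.15, edgeR adjusted p = 3.4e-04), and was called higher with the trends removed at 0.37 (adjusted p = 0.032). Without WT 2 and WT 3 that value was 0.29 and was no longer called (adjusted p = 0.12). The respiratory chain genes Cox8b (0.96 ± 0.19, adjusted p = 6.9e-04), Uqcrc1 (0.63 ± 0.13, adjusted p = 8.6e-04) and Sdhb (0.58 ± 0.12, adjusted p = 0.0011) were higher by edgeR. None of these 3 was called with the trends removed, where they stood at 0.15, 0.05 and 0.10.

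Of 24 PPAR target genes, 7 were higher and 9 lower, against 26.2% and 25.2% of all genes. The median log2 fold change of the list was -0.17. With the trends removed 5 were higher and 5 lower, against 19.0% and 19.1% of all genes, with a median of -0.11. Plin5, which coats lipid droplets next to mitochondria, was at 102 ± 14.5 CPM in KO hearts and 39.3 ± 9.93 CPM in WT hearts (1.36 ± 0.17, edgeR adjusted p = 2.3e-05; 0.73 with the trends removed). Cpt1b, the muscle carnitine palmitoyltransferase of the outer mitochondrial membrane, was at 14.6 ± 2.38 CPM in KO hearts and 6.49 ± 1.38 CPM in WT hearts (1.11 ± 0.18, adjusted p = 1.6e-04; 0.83 with the trends removed). In median-centred FPKM its log2 difference was 0.45 ± 0.14. The row of Cpt1b lay below that of Cpt1a, at 48.5 ± 4.81 CPM in KO hearts and 42.6 ± 7.15 CPM in WT hearts. Overlaps with other genes were looked up for the 10 regulators only, so reads lost from such rows were not tested. Acadvl, the very-long-chain acyl-CoA dehydrogenase, was higher by 0.96 ± 0.14 (adjusted p = 9.3e-05), and by 0.66 with the trends removed. Cd36, the fatty acid transporter of the cell surface, was at 175 ± 32.5 CPM in KO hearts and 346 ± 39.6 CPM in WT hearts (-0.98 ± 0.14, adjusted p = 8.6e-05), and was not called with the trends removed (-0.14, adjusted p = 0.36). Plin5, Cpt1b and Acadvl were called in both fits.

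**Figure D5:**
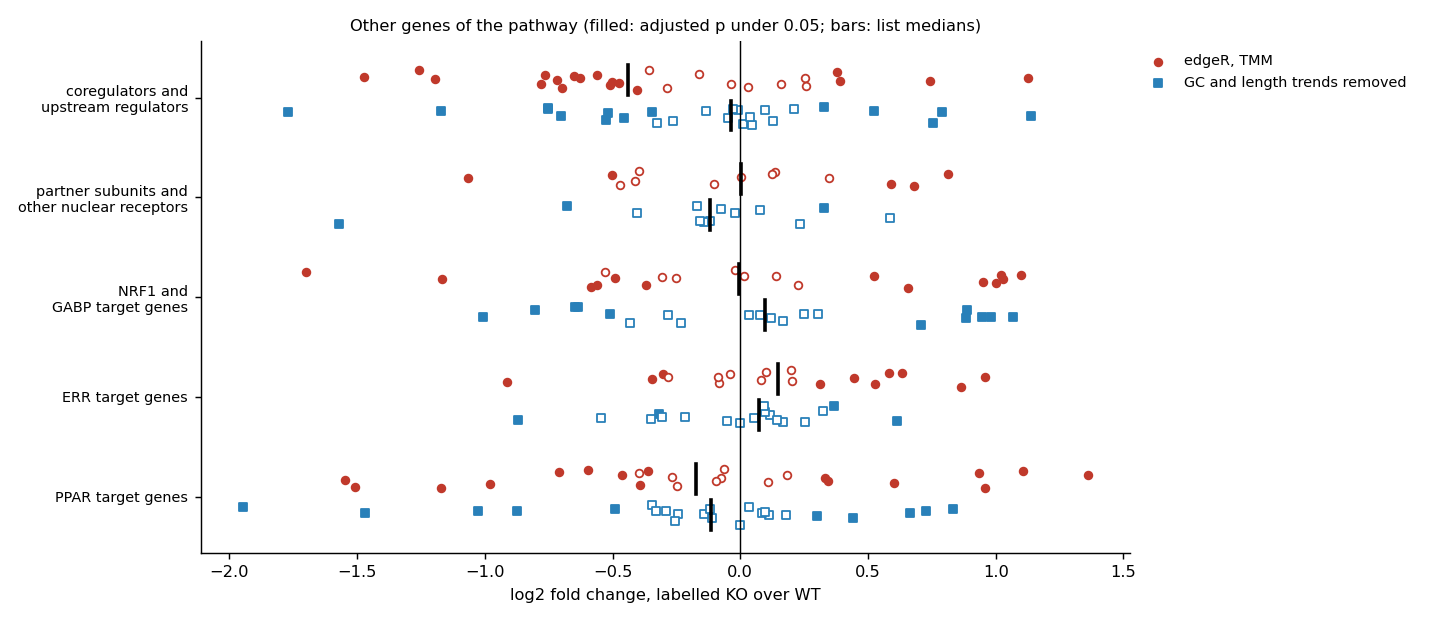
Log2 fold change, labelled KO over WT (x axis), of every tested gene in 5 lists of the pathway (y axis), by edgeR with TMM scaling (red circles) and with GC and length trends removed (blue squares), filled where the adjusted p is under 0.05, with black bars at the list medians. Coregulators and upstream regulators had a median of -0.44, which was -0.04 with the trends removed, and the other 4 medians lie between -0.17 and 0.15 in both fits.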

How the data were processed

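Poly(A) RNA of 9 mouse hearts was measured, 4 labelled germline Parkin knockout and 5 wild type, each library from a separate heart. The p-values therefore weigh the difference between the groups against the spread between hearts within them. The authors deposited read counts per gene (23457 rows) and FPKM values (23369 rows). The submitters' processing notes name HTSeq, Cufflinks 2.1, TopHat2 2.0.10, TopHat, Bowtie2, edgeR and DESeq, and the build mm10, without their roles. Not given in the sources used here: which gene annotation and strand setting the counting used. The counts of the targeted gene are not reported, and each direction rests on the labels.

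Counts were tested as deposited with edgeR 4.0.16 in R 4.3.3: TMM factors, the tool's default group-wise expression filter (minimum count 10, minimum total 15), the quasi-likelihood F test, no replicate term, and Benjamini-Hochberg adjustment over all genes with a threshold of 0.05. CPM are relative to TMM-scaled library sizes, and standard errors were derived from the F statistic. A second fit used as offsets each heart's lowess trends (span 0.3) on GC content, then length, of the longest coding GENCODE vM21 transcript, known for 99.3% of tested genes. FPKM were tested with limma 3.58.1 on the log2(FPKM + 1) scale where the mean FPKM was 0.5 or more, which understates the change of low genes. The edgeR procedures were tested on simulated counts, and limma on simulated log2 FPKM values. With no GC trend added, few calls of the first edgeR fit were unchanged genes. With a GC trend taken from these hearts added, most of its calls were unchanged genes, and few of those with the trends removed were. No genotype difference that follows GC content was simulated, so this cannot show which calls in these hearts are of unchanged genes.

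All 10 regulators are named; from each list, up to 4 called genes with the smallest p, or else the 2 with the highest CPM; and the 5 profiles nearest to Ppargc1a. The members, lists and corrections were chosen with earlier results of these data known. Alternatives were RLE and upper-quartile factors, other filters, DESeq2 1.42.0, limma-voom, omission of single hearts, of WT 2 with WT 3, and of mitochondrially encoded genes with Rn45s, a replicate block, other pseudocounts and median-centred FPKM. No 2 libraries of a group agreed within sampling noise (chi-square per degree of freedom 5.22 to 126.1). Reads per regulator and heart ran from 111 to 2477 in KO hearts and from 18 to 2200 in WT hearts, which limits Nrf1 most. Coordinates are from GENCODE vM21 on GRCm38, which mm10 names.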

Additional observations from a re-analysis of the deposited data

Results flagged for a closer look

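In 3 of the 40 sets of values examined (10 regulators in CPM and in FPKM, in each group), a single heart stood apart from the others of its group by Dixon's criterion. Chance gives about 1 in 20. For Gabpa in CPM the lowest KO heart, KO 4, was at 20.5 against 27.7 to 28.8 in the other KO hearts, a gap of 0.862 of the range. For Esrra in FPKM the highest WT heart, WT 1, was at 39.7 against 11.9 to 19.7 in the other WT hearts (0.72 of the range), and for Rxra in FPKM it was again WT 1, at 12.3 against 6.21 to 7.68 (0.759 of the range). WT 1 also had the lowest mitochondrially encoded share of the WT hearts, 32.6%, and the part of that share in its FPKM was not tested.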

How the results depend on the processing

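The 5 calls by edgeR (Esrra and Rxra higher, Ppargc1a, Esrrg and Gabpa lower) were the same genes under RLE and upper-quartile factors, both other filters, DESeq2, limma-voom, without mitochondrially encoded genes and Rn45s, without WT 2 and WT 3, and without any single heart, except that Nrf1 joined them without KO 4. With the trends removed and without WT 2 and WT 3, 4054 genes and 3 regulators were called. Replicate numbers are shared by name only: hearts of the same number correlated at -0.113, 0.041, -0.065 and -0.259 in their deviations, and 1 of the 4 KO hearts was closest to its own number. The replicate block over hearts 1 to 4 called 4995 genes and the same 5 regulators, and with the trends removed 3408 genes and 3 regulators (Esrra higher, Ppargc1a and Ppard lower). In FPKM the block called 5355 genes and 6 regulators, and median-centred FPKM 5 in place of 8. The split of all FPKM calls was 5961 higher and 769 lower, and 3214 and 3593 after centring. Some signs turned: with the trends removed Ppargc1b was at -0.28, Esrrb at -0.17, Gabpa at 0.016 and Ppard at -0.65. Without WT 2 and WT 3 as well, Ppargc1b was at -0.19, Esrrb at -0.14, Ppara at -0.072 and Ppard at -0.41. With the block as well, Ppargc1b was at -0.25, Esrrb at -0.067, Gabpa at 0.10 and Ppard at -0.63. By edgeR Ppara was at -0.0024 without WT 2 and WT 3, and Ppard ran from -0.13 to 0.14 over single hearts left out. In FPKM Gabpa ran from -0.20 to 0.051 over single hearts left out. The cause was not tested. Depth limits Nrf1, which had 18 reads in WT 3.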

Other observations

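Several genes of the lists beyond those the naming rule took passed both edgeR fits with the same sign, and they were chosen here after their values were seen. Crtc2, the CREB coactivator that acts on Ppargc1a in liver and muscle, was at 23.0 ± 3.04 CPM in KO hearts and 56.1 ± 18.8 CPM in WT hearts (SD, n = 4 and n = 5), with a log2 fold change of -1.26 (edgeR adjusted p = 2.3e-04) and of -1.77 with the GC and length trends removed (adjusted p = 4.1e-05). Ep300, an acetyltransferase that PGC-1alpha recruits, was at 70.8 ± 7.18 CPM in KO hearts and 163 ± 49.3 CPM in WT hearts (-1.19, adjusted p = 1.7e-04; -1.17 with the trends removed, adjusted p = 3.8e-04). Among PPAR target genes, Ucp2, an inner-membrane carrier, was at 76.6 ± 19.6 CPM in KO hearts and 226 ± 105 CPM in WT hearts (-1.55, adjusted p = 4.5e-04; -1.95 with the trends removed, adjusted p = 2.4e-04). Acot2, a mitochondrial acyl-CoA thioesterase, stood at -1.17 (adjusted p = 0.0020) and -1.47 (adjusted p = 9.4e-04), and Pdk4, the kinase that shuts off pyruvate dehydrogenase, at -1.51 (adjusted p = 0.0031) and -1.03 (adjusted p = 0.041) in these fits. Uqcrfs1, the Rieske protein of complex III on the ERR target list, was higher in both, at 0.53 (adjusted p = 0.0041) and 0.61 (adjusted p = 9.8e-04). Without WT 2 and WT 3 all of these changes were smaller in both fits. Pdk4 was at -0.97 (edgeR adjusted p = 0.040) and, with the trends removed, at -0.52, no longer called (adjusted p = 0.31). The others were still called in both. Crtc2 was at -0.93 and -1.44, Ep300 at -0.88 and -0.83, and Ucp2 at -0.99 and -1.37. Acot2 was at -0.72 and -1.01, and Uqcrfs1 at 0.44 and 0.54.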
